A study of Mus musculus with 12 samples.

Results

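Costimulatory and TNF receptor genes of lung group 2 innate lymphoid cells (ILC2s) were followed across genotype and treatment. They were taken by name and number 10 of the 24346 genes in each file: 7 members of the TNF receptor superfamily (*Tnfrsf18*, *Tnfrsf4*, *Tnfrsf9*, *Tnfrsf25*, *Tnfrsf1a*, *Tnfrsf1b* and *Cd27*), *Cd28* and *Icos* of the CD28 family, and *Icosl*, the ligand of ICOS. Receptors of the TNF superfamily bind trimeric ligands and recruit TRAF or death domain adaptors, which lead to NF-κB. CD28 and ICOS are immunoglobulin family receptors that signal mainly through PI3K. On ILC2s, the receptors GITR, DR3 and ICOS are known to promote survival or cytokine production, and ILC2s can themselves display ligands such as OX40L to T cells.

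RNA was sequenced from ILC2s of the lungs of C57BL/6 mice (C57BL/6J in the study's methods) in 12 libraries, 3 for each of 4 groups: WT given PBS, 6DKO given PBS, WT given IL-33 and 6DKO given IL-33. 6DKO mice lack Sema6D, a transmembrane semaphorin, in the whole body. PBS, the vehicle, or IL-33, an alarmin that activates ILC2s through its receptor ST2, was given intranasally for 3 days. The labels give 50 ng of IL-33, whereas the study's methods give a higher dose, and the age of the mice is not in the labels. According to the methods, the cells were sorted as CD45+, lineage-negative, Thy1.2+ and ST2+. The labels name SMART-Seq HT and Nextera kits for the libraries, and the methods a stranded TruSeq kit. The labels call the 3 libraries of a group replicates without saying that they came from separate animals, so p-values measure the spread between these libraries, which may in part be technical.

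The 6DKO libraries still had RNA of *Sema6d*, the targeted gene, which lies at 124089969 to 124667770 on chromosome 2 (GRCm38). Its FPKM (fragments scaled for transcript length and library size) was 27.5, 46.1 and 37.5 in WT PBS and 29.0, 22.9 and 19.8 in 6DKO PBS. Under IL-33 it was 19.7, 35.5 and 28.7 in WT and 15.4, 13.6 and 13.8 in 6DKO. The genotypes overlapped under PBS and did not overlap under IL-33, but neither difference passed the threshold (log2 fold change −0.60, adjusted p = 0.463 under PBS, and −0.89, adjusted p = 1 under IL-33, limma). The files do not say which exons the mutation removes, so these values neither check nor contradict the genotype labels.

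Libraries of the PBS groups were less even than those of the IL-33 groups. Relative depth, estimated from the value steps of weakly expressed genes with WT IL-33 replicate 3 set to 1, was 0.739 to 0.998 under PBS and 0.968 to 1.39 under IL-33. In PBS libraries 169 to 641 of the 3617 genes with a mean of 5 to 20 FPKM were at 0, against 25 to 50 in IL-33 libraries, so a gene is called "listed at 0" and its values are given library by library. Pearson's r between replicates over the tested genes, which are not independent, lay between 0.761 and 0.818 for PBS and between 0.934 and 0.950 for IL-33.

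Markers of ILC2s were present in all libraries, as were some markers of other cells. All 14 ILC2 markers were above 0 in all 12 libraries, with *Id2*, *Gata3*, *Il1rl1* (which encodes ST2) and *Ptprc* (CD45) among them, and their summed level was 6506 to 9703 FPKM. Of 8 T cell markers, *Cd3g* accounted for nearly the whole sum, at 190 to 480 FPKM, while *Cd3e* stayed at or below 9.81 FPKM and *Cd4* was listed at 0 throughout. The 12 macrophage or dendritic cell markers summed to 188 FPKM in 6DKO PBS replicate 2, 428 in 6DKO IL-33 replicate 2 and 149 in 6DKO IL-33 replicate 3, and to 20.9 or less elsewhere. *Chil3* was the most abundant of them over the 12 libraries, whereas *Csf1r* was below 0.1 FPKM in all libraries and *Adgre1* was below 0.1 in all but 6DKO PBS replicate 3 (3.06 FPKM). *Lyz2* was 112 FPKM in 6DKO PBS replicate 2, above *Chil3* there (51.1), and 57.9 in 6DKO IL-33 replicate 3. *Mrc1* and *Marco* were highest in 6DKO PBS replicate 2, at 6.84 and 7.28 FPKM. *Cd68* was 2.10 to 4.87 FPKM in all 6DKO IL-33 libraries and 1.15 or less elsewhere. *Flt3* and *Mertk* were at or below 0.255 FPKM throughout, and *Xcr1* was above 0 in every library. The 5 NK cell markers summed to 106 FPKM in 6DKO PBS replicate 2, with *Ncr1* at 58.9 FPKM, and to 7.93 or less in the other libraries. The B cell sum, to which *Cd79b* gave the most over the 12 libraries, was 3.49 to 26.9 FPKM under IL-33 and 8.90 or less under PBS, with *Ms4a1* listed at 0 throughout. Of 10 granulocyte or mast cell markers, *Cpa3*, of mast cells, was 17.8 to 40.0 FPKM under IL-33 and 42.9 to 89.3 under PBS. *Ccr3* went the other way, at 0.399 to 1.95 FPKM under IL-33 and at 0 in all PBS libraries but WT PBS replicate 2 (1.57 FPKM). *Fcer1a* was above 0 in WT IL-33 replicate 2 alone (2.99 FPKM). *Mcpt4* and *Mcpt8* were listed at 0 throughout, and the others were at or below 0.0399 FPKM. Epithelial markers differed among themselves: *Epcam* was at 0 to 8.71 FPKM under IL-33 against 16.4 to 54.0 under PBS. *Cdh1* was at 2.72 to 6.35 FPKM under IL-33 and at 0 in 4 of 6 PBS libraries. *Sftpc* reached 97.2 FPKM in 6DKO IL-33 replicate 3. *Krt8* (19.5 FPKM) was above 0 in 6DKO PBS replicate 2 alone, where *Scgb1a1* was highest (22.4 FPKM). The endothelial sum was 1.32 to 23.1 FPKM and highest in that library, with *Cldn5* at 12.7. The mesenchymal sum was 4.51 FPKM there and 0.540 or less elsewhere. The part of such cells in the receptor values was not tested.

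Among the receptors, *Tnfrsf18* and *Icos* were the most abundant. *Tnfrsf18*, which encodes GITR, ranked 76 and 69 among all genes in WT PBS and 6DKO PBS by mean FPKM, and 188 and 259 in WT and 6DKO under IL-33. Of the summed FPKM of the 10 genes it made up 70.3% to 75.4% with PBS, and only 38.2% to 51.5% with IL-33. *Icos* ranked between 310 and 488 in the 4 groups and *Tnfrsf25* between 783 and 1133. *Tnfrsf1a*, the death domain receptor for TNF, ranked between 8111 and 11745 and was the lowest in all groups but 6DKO PBS, where *Cd28* and *Tnfrsf4* were lower.

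The comparison of IL-33 with PBS asks how activation in the lung changed these receptors. *Tnfrsf18*, *Cd27* and *Icos* fell and *Tnfrsf4* rose over both genotypes, and *Tnfrsf18* moved the other way from its neighbour *Tnfrsf4*. The test was limma on log2(FPKM + 1) in a joint model of the 12 libraries, with an adjusted p under 0.05 as the threshold. Calls are less certain than their adjusted p says. Those near the threshold, as for *Cd27*, *Icos*, *Cd28* in 6DKO and *Tnfrsf4* in WT, were each lost in most alternatives. Averaged over genotypes, 4 of the 10 genes changed, as did 8.82% of the 11395 genes tested. The median log2 fold change was −0.32 over the 10 genes and 0.16 over all genes tested; quantile normalization moved the latter to −0.027. In bulk RNA, fewer cells of a type and less RNA per cell cannot be told apart.

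GITR, a costimulatory receptor that lowers the threshold of T cell and ILC2 activation, had the clearest difference. The FPKM of *Tnfrsf18* was 2245, 1425 and 1977 in WT PBS and 2276, 1538 and 1669 in 6DKO PBS. Under IL-33 it was 609, 720 and 804 in WT and 567, 529 and 424 in 6DKO. Every IL-33 library was below every PBS library, and the means over both genotypes were 609 ± 136 FPKM under IL-33 and 1855 ± 365 FPKM under PBS (SD, n = 6 each), 3.05-fold higher under PBS. Averaged over genotypes, limma gave −1.61 on the log2 scale with a standard error of 0.14 (adjusted p = 3.41e-05), rank 32 by p of the genes tested. It gave −1.39 in WT (adjusted p = 0.00228) and −1.84 in 6DKO (adjusted p = 0.000684). The call in 6DKO was lost without the 3 libraries highest in macrophage markers, all of them 6DKO. Its log2 fold change was then −1.78, from a single library of 6DKO IL-33. Exons of *Tnfrsf18* overlap the antisense gene *Gm16008*, so reads of the pair cannot be told apart unless strand was used.

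OX40, the costimulatory receptor of OX40L, went the other way. In PBS libraries *Tnfrsf4* had 14.7, 0 and 28.1 FPKM in WT, and 0.153, 0 and 1.16 FPKM in 6DKO. With IL-33 it reached 73.6, 116 and 184 FPKM in WT and 102, 66.3 and 49.8 FPKM in 6DKO. All 6 IL-33 libraries were above all 6 PBS libraries. Together with *Tnfrsf18* these were the 2 receptors without overlap between 6 libraries and 6, where 6.46% of all genes tested had none. Over both genotypes *Tnfrsf4* rose by 4.82 on the log2 scale (limma, standard error 0.69, adjusted p = 0.0011), with 3.93 in WT (adjusted p = 0.0445, limma) and 5.70 in 6DKO (adjusted p = 0.00983, limma). The calls over both genotypes and in 6DKO were lost without the 3 libraries highest in macrophage markers, with log2 fold changes of 4.98 and 6.03. That in 6DKO was also lost without 6DKO IL-33 replicate 1 (5.43, adjusted p = 0.0543, limma). Of the 1395 genes with a mean of 50 to 200 FPKM under IL-33, a range chosen after the values were seen, 49 (3.51%) were listed at 0 in at least 2 of the 6 PBS libraries, as *Tnfrsf4* was. *Tnfrsf4* reached 11.7% to 22.9% of the *Tnfrsf18* FPKM in IL-33 libraries and 1.42% or less in PBS libraries.

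CD27, the receptor of CD70, and ICOS, which supports ILC2 survival through ICOSL, fell by smaller amounts. *Cd27* was at 31.3, 24.9 and 30.9 FPKM in WT PBS and 45.4, 57.2 and 15.8 in 6DKO PBS. It was at 17.0, 15.3 and 11.1 FPKM in WT IL-33 and 16.0, 16.5 and 11.4 in 6DKO IL-33. Only 6DKO PBS replicate 3 lay within the IL-33 range, and the highest value was in 6DKO PBS replicate 2, a library high in macrophage and NK cell markers. Averaged, limma gave *Cd27* a log2 fold change of −1.09 with a standard error of 0.31 (adjusted p = 0.0478). An exon of *Cd27* also holds *Mir8113* on its own strand.

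*Icos* was at 366, 268 and 403 FPKM in WT PBS and 518, 311 and 420 in 6DKO PBS. Under IL-33 it was at 241, 249 and 268 FPKM in WT and 254, 258 and 277 in 6DKO. The IL-33 libraries lay in a narrow range, and WT PBS replicate 2 was the PBS library that fell among them. Averaged, it fell by 0.53 on the log2 scale (limma, standard error 0.14, adjusted p = 0.0359). The calls for *Cd27* and *Icos* were lost on leaving out most of the single libraries.

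The remaining genes did not pass the threshold over both genotypes with all libraries, although *Tnfrsf1b* and *Cd28* did in some alternatives. *Tnfrsf1b* (TNFR2), the TNF receptor without a death domain, was at 52.9, 32.2 and 51.2 FPKM in WT PBS and 80.1, 84.9 and 99.5 in WT IL-33. In 6DKO it was at 119, 16.8 and 56.8 FPKM under PBS and had a mean of 110 ± 12.6 under IL-33 (SD, n = 3), so that 1 PBS library was above all IL-33 libraries. Its averaged log2 fold change was 1.06 (limma, standard error 0.37, adjusted p = 0.103), and it passed the threshold with array weights (1.11, adjusted p = 0.0297) and without 6DKO PBS replicate 1 (1.37, adjusted p = 0.0126). *Tnfrsf25* (DR3), whose ligand TL1A activates ILC2s, was at 197, 60.0 and 162 FPKM in WT PBS and 145, 148 and 142 in WT IL-33. The corresponding 6DKO values were 55.3, 105 and 123 under PBS and 136, 119 and 165 under IL-33. The groups of *Tnfrsf25* overlapped in both genotypes (averaged log2 fold change 0.43, adjusted p = 0.417, limma). *Tnfrsf9* (4-1BB), a costimulatory receptor induced on activated lymphocytes, had an averaged log2 fold change of −0.43 (adjusted p = 0.446, limma). *Icosl* lay between 22.4 and 41.2 FPKM in all libraries (−0.29, adjusted p = 0.433, limma).

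*Cd28*, the receptor of CD80 and CD86, was low in ILC2s. It was at 1.93, 6.76 and 13.7 FPKM in WT PBS and 1.34, 0.381 and 0.0894 in 6DKO PBS. Under IL-33 it was at 8.76, 5.57 and 6.25 FPKM in WT and 5.69, 8.20 and 11.3 in 6DKO. The 3 6DKO PBS libraries were the lowest of all 12. In 6DKO, *Cd28* rose by 2.58 on the log2 scale (limma, standard error 0.61, adjusted p = 0.0467), in WT its log2 fold change was 0.16 (adjusted p = 0.940, limma), and averaged it was 1.37 (adjusted p = 0.0744, limma), or 1.64 without WT PBS replicate 3 (adjusted p = 0.0265). Of the 2168 genes with a mean of 5 to 12 FPKM under IL-33, limits also chosen with the values known, 83 (3.83%) were likewise below 1.5 FPKM in all 3 6DKO PBS libraries. *Tnfrsf1a* was at 9.60 FPKM in WT PBS replicate 2 and 4.38 in 6DKO PBS replicate 2, listed at 0 in the other 4 PBS libraries and at 1.19 FPKM or less under IL-33. Its averaged log2 fold change of −0.35 (adjusted p = 0.790, limma) changed sign in several alternatives.

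**Figure D1:**
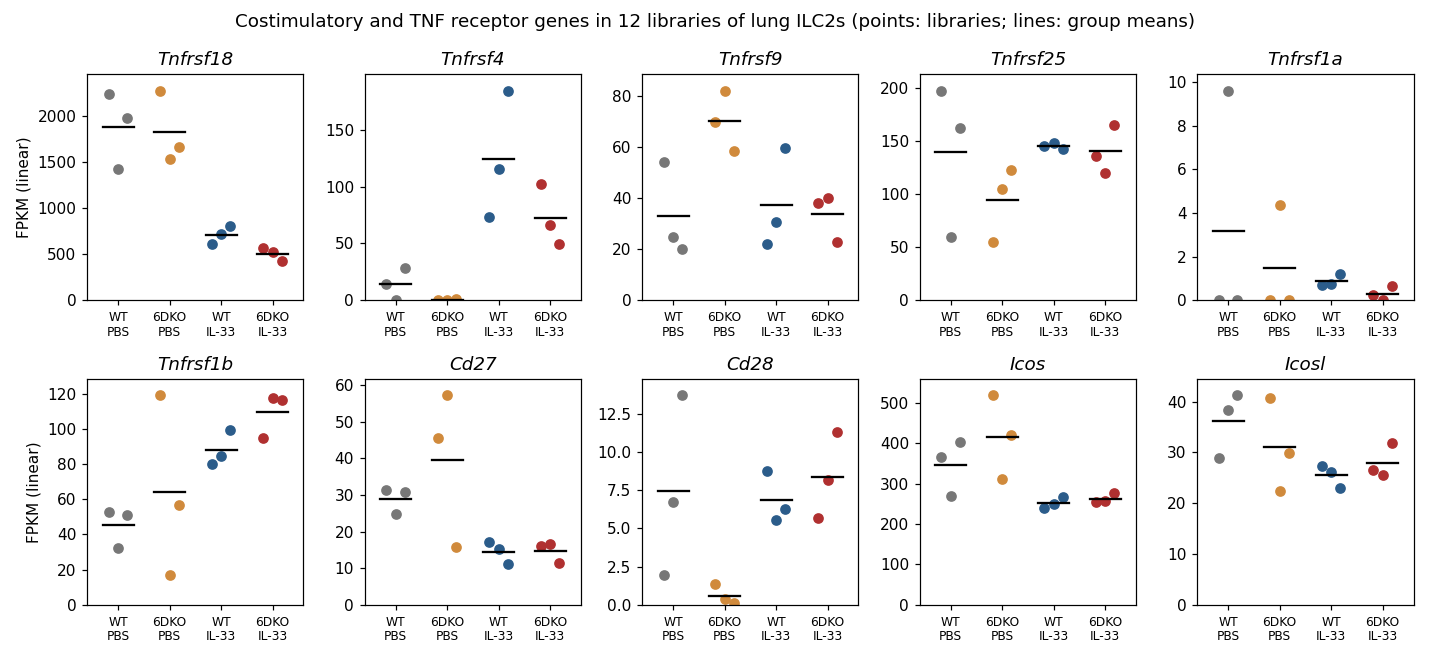
FPKM (y axis, linear, from 0) of the 10 receptor and ligand genes in each library, by group (x axis), with points for the 3 libraries of a group and a line at their mean. *Tnfrsf18* lies at or above 1425 FPKM in PBS libraries and at or below 804 FPKM in IL-33 libraries, while *Tnfrsf4* lies at or below 28.1 FPKM under PBS and at or above 49.8 FPKM under IL-33.

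Within WT, 2 of the 10 genes changed with IL-33 (4.27% of all genes tested), namely *Tnfrsf18* and *Tnfrsf4*. In 6DKO, 3 changed (2.84% of all genes tested), with *Cd28* the third. Values did not overlap between treatments for 6 of the 10 in WT and 5 in 6DKO, against 25.1% and 22.7% of all genes tested. Those without overlap in WT were *Tnfrsf18*, *Tnfrsf4*, *Tnfrsf1b*, *Cd27*, *Icos* and *Icosl*; in 6DKO they were *Tnfrsf18*, *Tnfrsf4*, *Tnfrsf9*, *Cd28* and *Icos*. A call in 1 genotype and not in the other is no difference between them, which the interaction tests. Each group also serves in more than 1 contrast, so the contrasts share libraries and are not independent.

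Several of the ligands moved with IL-33 too. Of 9 ligand genes of these receptors, 7 could be tested, of which 4 rose and 1 fell in the averaged contrast, with a median log2 fold change of 1.44 (of all genes tested, 5.75% rose and 3.07% fell). *Cd70*, *Cd80* and *Tnfsf18* reached the mean FPKM needed for testing through their IL-33 libraries, which bears on the counts and the median; the calls for *Cd70* and *Cd80* held with no filter. *Tnfsf4*, which encodes OX40L, was listed at 0 in all 3 WT PBS libraries and was at 36.1, 8.93 and 0 FPKM in 6DKO PBS. Under IL-33 it had 16.9, 43.6 and 48.3 FPKM in WT and 34.2, 34.4 and 21.0 in 6DKO (adjusted p = 0.00815 over both genotypes, limma). In WT all IL-33 libraries were above all PBS libraries, but in 6DKO, where *Tnfsf4* was not called, PBS replicate 1 lay above all 3 IL-33 libraries. *Cd70*, the ligand of CD27, was listed at 0 in all 6 PBS libraries and had 9.84 to 62.0 FPKM with IL-33 (adjusted p = 6.53e-05, limma), while *Cd27* fell. *Tnfsf9* (4-1BBL) lay between 112 and 145 FPKM under IL-33 and between 24.0 and 114 under PBS. *Cd80* was at or below 0.0921 FPKM under PBS and between 0.745 and 4.26 under IL-33 (adjusted p = 0.00288, limma), a call lost with quantile normalization. *Tnf* was lower in all 6 IL-33 libraries, at 42.1 to 53.4 FPKM against 90.4 to 194 (log2 fold change −1.54, adjusted p = 0.000767, limma). *Cd86* and *Tnfsf15*, which encodes TL1A, were at or below 1.03 and 0.404 FPKM and were not tested. Within WT, *Tnfsf4* and *Cd70* rose and *Tnf* fell by 1.55 (adjusted p = 0.0136, 0.00138 and 0.0120, limma). Within 6DKO, *Cd70* and *Cd80* rose and *Tnf* fell by 1.53 (adjusted p = 0.00322, 0.0110 and 0.0176, limma). Some of these calls within a genotype were lost when a library was left out.

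The other lists were counted in the averaged contrast, in which 8.82% of all genes tested changed; no list was tested against that share. Of 15 tested receptors of the wider TNF receptor superfamily, 0 rose and 1 fell, *Tnfrsf12a* (Fn14), at 13.1 to 59.9 FPKM under PBS and 5.25 to 15.8 under IL-33 (adjusted p = 0.0452, limma), a call lost in most alternatives. Of 6 tested genes of the CD28 and B7 family, *Ctla4*, the inhibitory counterpart of CD28, rose. It was at 9.11, 0, 0, 0, 32.8 and 8.37 FPKM in the PBS libraries and at 125 to 200 FPKM with IL-33 (adjusted p = 0.00138, limma). Of 27 adaptors and kinases, *Tank* rose, a call also lost in most alternatives, and *Ikbkb*, an IκB kinase, and *Tnfaip3*, the NF-κB inhibitor A20, fell by 0.84 and 0.66 on the log2 scale (adjusted p = 0.00498 and 0.00172, limma). Of 17 genes of CD28 and ICOS signalling, 1 rose, *Lck*, and 4 fell, among them *Prkcq*, *Malt1* and *Lcp2*. *Lck*, a proximal kinase, had a log2 fold change of 1.15 and *Malt1*, a scaffold to NF-κB, one of −1.22 (adjusted p = 0.0118 and 0.0211, limma). None of the 3 RNA decay factors that act on *Icos* or *Tnfrsf4* mRNA, *Rc3h1*, *Rc3h2* and *Zc3h12a*, changed. Within WT, in which 4.27% of all genes tested changed, *Ctla4* and *Lck* rose, by 6.16 and 1.79 on the log2 scale. There *Ikbkb*, *Tnfaip3* and *Malt1* fell, the last by 1.74 (adjusted p = 0.0332, limma). The WT call for *Malt1* was lost in 10 of 22 alternatives and that for *Ikbkb* in 5, both with the replicate block among them. Those for *Lck* and *Tnfaip3* were lost in fewer. Within 6DKO, 0 genes of these lists passed the threshold, against 2.84% of all genes tested.

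**Figure D2:**
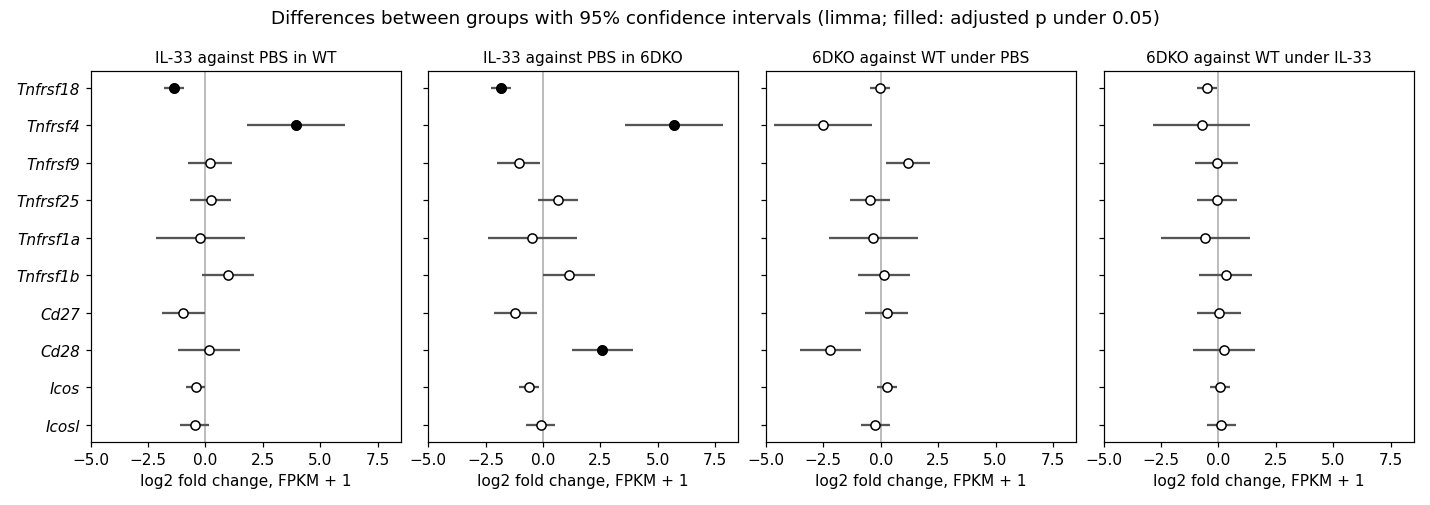
Log2 fold changes of FPKM + 1 (x axis) of the 10 genes (y axis) with 95% confidence intervals from limma, for IL-33 against PBS in each genotype and for 6DKO against WT in each treatment. The intervals use a spread common to all groups. Filled points have an adjusted p under 0.05. They are *Tnfrsf18* and *Tnfrsf4* in WT, these and *Cd28* in 6DKO, and none between the genotypes.

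The comparison of 6DKO with WT under IL-33 asks whether loss of Sema6D alters the activated cells. *Tnfrsf18* was lower in all 3 6DKO libraries than in all 3 WT libraries, but no receptor passed the threshold. Values of the genotypes did not overlap for 2 of the 10 genes, *Tnfrsf18* and *Tnfrsf1a*, where 14.2% of all genes tested did not overlap. Of all genes tested, 0.00878% (1 gene) had an adjusted p under 0.05 by limma, and 209 had an unadjusted p under 0.05. Over the alternatives, the number of all genes past the threshold was 0 to 55 (55 with array weights, 0 with quantile normalization or only the groups compared). The joint model uses a common spread for all groups. The median SD between replicates on the log2 scale was 0.29 in WT IL-33 and 0.28 in 6DKO IL-33. It was 0.66 in WT PBS and 0.70 in 6DKO PBS. The test was thus stricter under IL-33 than the spread of its own libraries would make it. The log2 fold change of *Tnfrsf18* was −0.49 with a 95% confidence interval from −0.92 to −0.055 (unadjusted p = 0.0305, limma). It was −0.32 without the 3 libraries highest in macrophage markers, left out after the data were seen, 2 of which are 6DKO IL-33 libraries. *Tnfrsf4* ranged from 73.6 to 184 FPKM in WT and from 49.8 to 102 in 6DKO (log2 fold change −0.73, adjusted p = 1, limma). For *Icos* the log2 fold change was 0.059 (95% confidence interval −0.37 to 0.49), and this test does not show equal levels. That interval and the one for *Tnfrsf18* rest on the spread of all 12 libraries. The SD of *Icos* was 13.7 FPKM in WT and 12.3 in 6DKO under IL-33, against 69.8 and 104 under PBS. The other genes had log2 fold changes from −0.57 (*Tnfrsf1a*) to 0.31 (*Tnfrsf1b*). In the lists of ligands, adaptors and signalling genes, 0 genes passed the threshold.

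Under PBS the comparison of the genotypes had 0 of the 10 genes past the threshold, with 0.579% of all genes tested, 66 genes, past it (limma). An unadjusted p under 0.05 was found for 1475 genes (limma). Over the alternatives, the number of all genes past the threshold was 1 to 213, with 1 under array weights or with only the groups compared. As the common spread also takes in the more even IL-33 libraries, the test was more lenient here than under IL-33. The counts of genes in the genotype contrasts are therefore not comparable between treatments. Values did not overlap for *Tnfrsf9* and *Cd28*, 2 of the 10, against 8.63% of all genes tested. *Tnfrsf9* was at 53.9, 24.7 and 19.9 FPKM in WT and 69.6, 81.9 and 58.5 in 6DKO, and all 6DKO libraries were above all WT libraries (limma, log2 fold change 1.19 with standard error 0.43, adjusted p = 0.288). *Cd28* was lower in all 6DKO libraries (limma, −2.19 with standard error 0.61, adjusted p = 0.194). *Tnfrsf4*, at 28.1 FPKM or less in all 6 libraries, had a log2 fold change of −2.50 (adjusted p = 0.314, limma). *Tnfrsf18* means were 1882 ± 418 FPKM in WT and 1828 ± 394 FPKM in 6DKO (SD, n = 3 each), with overlap. Without WT PBS replicate 1, *Cd28* passed the threshold (−2.81, adjusted p = 0.0486, limma), and without WT PBS replicate 2 so did *Tnfrsf4* (−3.98, adjusted p = 0.0132, limma).

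The interaction asks whether IL-33 acts differently in the genotypes. Of the 10 genes, 0 had an adjusted p under 0.05, as did 0.0176% of all genes tested (2 genes; 635 had an unadjusted p under 0.05, limma). The interaction of *Cd28* was 2.43 (standard error 0.87, unadjusted p = 0.0164, adjusted p = 0.852, limma), with 95% confidence limits of 0.53 and 4.32. That of *Tnfrsf9* was −1.25 (unadjusted p = 0.0624, adjusted p = 0.893, limma): it had means of 70.0 ± 11.7 FPKM under PBS and 33.7 ± 9.36 under IL-33 in 6DKO, and of 32.8 ± 18.4 and 37.4 ± 19.6 FPKM in WT (SD, n = 3 each). *Tnfrsf18* had −0.45 and *Tnfrsf4* 1.77 (adjusted p = 0.897 for both, limma).

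Patterns like those of the 3 most abundant receptors were found over the 12 libraries on the log2 scale. The genes most like *Tnfrsf18* were *Sdc4*, *Nedd4* and *Hs3st1* (Pearson's r 0.977, 0.974 and 0.971). For *Icos* they were *Zfp950*, *Ube3a* and *Mprip* (0.939, 0.936 and 0.932), and for *Tnfrsf25* *Fbxw4*, *Tubg1* and *Tars2* (0.962, 0.954 and 0.940). The libraries share their treatment groups and depth, so these values describe likeness alone.

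Some of the genes lie near each other in the mouse genome, while *Icosl* is the only one of them on chromosome 10. In GRCm38 (GENCODE vM21), 5 of them are within 10.8 Mb of chromosome 4, with *Tnfrsf4* at 156013843 to 156016612 and *Tnfrsf18* at 156026164 to 156028895, both on the + strand and 9551 bases apart. *Cd28* (60716800 to 60773359) and *Icos* (60977927 to 61000320) lie on the + strand of chromosome 1, with *Ctla4* between them. The neighbours *Tnfrsf4* and *Tnfrsf18* thus changed in opposite directions under IL-33, and *Ctla4* rose while *Icos* fell. RefSeq (GRCm38.p6) gives promoters for 8 of the 10 genes, in 10 windows of 250 bases before a transcription start. Of 5 motifs searched on both strands, the STAT motif TTCNNNGAA was found in the *Tnfrsf18* window (TTCACAGAA), and none of the motifs in that of *Tnfrsf4*. The STAT motif was also in a window of *Tnfrsf9*, *Tnfrsf25*, *Tnfrsf1a* and *Tnfrsf1b*, which did not pass the threshold with IL-33, so it is not particular to *Tnfrsf18*. The RefSeq start of *Tnfrsf18* lies inside the gene as GENCODE gives it, so its window spans the GENCODE start and the match lies within that gene. TTCNNNGAA occurs in 7.02% of 32851 promoter windows of this length, the AP-1 motif TGANTCA in 6.75%, the GATA motif AGATAA in 9.99%, the RUNX motif TGTGGT in 14.0% and the NF-κB motif in 7.25%. The 2 windows are shown because these neighbours went in opposite directions, with the match in capitals; a match is no evidence of binding. They are chr4:156026072-156026321 and chr4:156013445-156013694, both + strand.
Tnfrsf18: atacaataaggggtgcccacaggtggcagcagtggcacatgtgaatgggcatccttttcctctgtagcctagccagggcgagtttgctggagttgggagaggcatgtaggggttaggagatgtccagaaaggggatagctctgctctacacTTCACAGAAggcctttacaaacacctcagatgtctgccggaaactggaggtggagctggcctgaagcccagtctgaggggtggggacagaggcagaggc
Tnfrsf4: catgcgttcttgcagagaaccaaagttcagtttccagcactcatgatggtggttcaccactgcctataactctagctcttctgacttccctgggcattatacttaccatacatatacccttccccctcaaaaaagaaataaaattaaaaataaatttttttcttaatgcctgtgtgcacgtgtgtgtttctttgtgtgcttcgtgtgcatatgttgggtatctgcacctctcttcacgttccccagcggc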

How the data were processed

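The authors mapped reads to mm10 and deposited FPKM values, already scaled for gene length and library size, with 1 file per library. The submitters' processing notes name TopHat2 2.1.1, Bowtie2 and Cuffdiff 2.2.1, and the methods name Cuffnorm; the annotation is not given in the sources used here. Samples were grouped by their labels. The 10 genes and all lists were chosen with earlier results of these data known.

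From the FPKM values, log2(FPKM + 1) was fitted with limma 3.58.1 (R 4.3.3; lmFit, and eBayes with a trend), with a mean for each of the 4 groups (8 residual degrees of freedom; no covariate). Tested were the 11395 genes whose mean over the 12 libraries reached 0.5 FPKM, which includes all 10. P-values were two-sided and adjusted over all genes tested by the Benjamini-Hochberg method; those under 0.05 were called. A fold change on this scale understates that of low genes. Python 3.11.15, numpy 2.4.6 and pandas 2.3.3 made the descriptions.

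Not every called gene is named. The genes named were chosen from the 10, up to 3 called genes with the largest fold change from each list and contrast, and the 3 genes most like each of the 3 most abundant of the 10; *Lcp2*, *Tnf* and *Tnfsf9* (averaged contrast), untested ligands and markers were named after their values were seen. In 871 of 1727 weakly expressed genes (50.4%) the values were multiples of the lowest value (within 3%), so reads could not be recovered and no count test was run. Relative depth differed 1.88-fold between libraries. Tested on simulated data in the averaged contrast, the fit recovered the size of the changes, but many of the smallest changes were missed. Among its calls were more unchanged genes than the threshold allows. With 200 genes changed by 1, 2 or 4 on the log2 scale, 74, 163 and 190 of them were called. Beside them 25, 60 and 51 unchanged genes were called. Calls are thus less certain than their adjusted p says. The changed genes of the simulation had a mean log2(FPKM + 1) over 3, so its shares do not cover low genes such as *Cd28* and *Tnfrsf1a*. Noise was independent between genes, and the contrasts within a genotype or treatment were not simulated. Other settings used a pseudocount of 0.1, left the filter out or raised it to 2 FPKM, normalized by quantiles or by median ratios, dropped the eBayes trend, weighted the libraries (array weights), took replicate numbers as a block, fitted just the groups compared, or left out each library. Leaving out together the 3 libraries high in macrophage markers was added after the data were seen.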

Additional observations from a re-analysis of the deposited data

How the results depend on the processing

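Calls for *Tnfrsf18* over both genotypes and in WT held in all 21 and 22 alternatives. With the 3 libraries highest in macrophage markers left out together (chosen after the data were seen; 6DKO IL-33 then had 1 library, assumed to vary like the others), the averaged call for *Tnfrsf4* was lost (adjusted p = 0.0548, limma), as were those for *Cd27* (0.342) and *Icos* (0.0822) and, in 6DKO, *Tnfrsf18* (0.0978) and *Tnfrsf4* (0.294), while their log2 fold changes were 4.98, −0.84 and −0.65 and, in 6DKO, −1.78 and 6.03, against 4.82, −1.09, −0.53, −1.84 and 5.70 with all libraries. Lost too were, over both genotypes, the calls for *Tnfrsf12a* (0.144; log2 fold change −1.66 against −1.34), *Tnfsf4* (0.140; 3.81 against 3.58), *Tnfsf9* (0.183; 1.12 against 1.44), *Tank* (0.344; 0.92 against 1.03), *Prkcq* (0.183; −1.32 against −1.29), *Malt1* (0.271; −0.95 against −1.22), *Lck* (0.142; 1.18 against 1.15) and *Lcp2* (0.121; −0.62 against −0.55), in WT those for *Tnfrsf4* (0.164), *Tnfsf4* (0.0868), *Tnf* (0.0614), *Lck* (0.0613) and *Malt1* (0.0822), whose log2 fold changes are the same because all 3 libraries are 6DKO, and in 6DKO those for *Cd28* (0.677; 2.07 against 2.58), *Cd70* (0.107; 5.44, larger than with all libraries), *Cd80* (0.115; 1.71 against 2.11) and *Tnf* (0.395; −1.46 against −1.53). The call for *Tnfrsf4* was lost in 14 of 22 alternatives in WT (adjusted p up to 0.184) and 2 in 6DKO, that for *Cd27* in 15 of 21 and *Icos* in 12 of 21 (highest adjusted p 0.342 and 0.141; with a single library left out, *Cd27* kept its call without 6DKO PBS replicate 3 alone, and *Icos* without WT PBS replicate 2 or 6DKO PBS replicate 2), and that for *Cd28* in 6DKO in 13 of 22 (highest 0.677). Over both genotypes, the call for *Tnfrsf12a* was lost in 15 of 21 alternatives (with the replicate block, adjusted p = 0.0746), that for *Tank* in 14 (block, 0.0756), *Lcp2* in 8, *Malt1* in 5 and *Prkcq* in 4, and that for *Cd80* with quantile normalization (log2 fold change 0.80 against 1.58, adjusted p = 0.124). In WT that for *Malt1* was lost in 10 of 22 (block, 0.0690) and that for *Ikbkb* in 5 of 22 (block, 0.0533; no trend, 0.0693; and without any 1 WT IL-33 library, up to 0.111). Also lost were the calls for *Tnf* in 6DKO without 6DKO PBS replicate 1 (0.0505) or any 1 6DKO IL-33 library (0.0670, 0.0786 and 0.0548), *Cd80* in 6DKO with quantile normalization (0.0947) or array weights (0.0632), and *Tnf* in WT with only the groups compared (0.0524) or without WT IL-33 replicate 1 (0.0504) or 2 (0.0548). So were those for *Tnfsf4* in WT without WT IL-33 replicate 2 (0.0657) or 3 (0.0704), *Lck* in WT without WT IL-33 replicate 1 (0.0551) or 3 (0.0660), *Tnfaip3* in WT without the trend (0.106), and *Tnfsf9* over both genotypes without WT IL-33 replicate 3 (0.0512) or 6DKO IL-33 replicate 3 (0.0514). Calls were gained in 6DKO for *Cd27* without 6DKO PBS replicate 3 (−1.75, adjusted p = 0.0184) and for *Icos* without 6DKO PBS replicate 2 (−0.83, adjusted p = 0.0346). The cause was not tested.

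Of the 10 genes, the number called was, over both genotypes, 4 as reported, 3 with no filter, 2 with eBayes without the trend, 1 without the 3 libraries, and 2 to 3 when a library was left out. In WT it was 2, and 1 with a pseudocount of 0.1, no filter, no trend, only the groups compared or without the 3 libraries, and 1 to 2 with a library left out. In 6DKO it was 3, and 2 with no filter, quantile normalization, the replicate block or only the groups compared, each time without *Cd28*, and 0 without the 3 libraries and 1 to 3 with a library left out. Between the genotypes under PBS it was 0 to 1 with a library left out. Genes called, over both genotypes, were 485 without the 3 libraries, against 1005, and 660 to 1244 with a library left out; in WT they were 202 to 691 with a library left out; in 6DKO 31 without the 3 libraries and 122 to 476. For 6DKO against WT under IL-33 they were 2 (pseudocount 0.1), 0 (quantile normalization, only the groups compared), 55 (array weights), 21 (without the 3 libraries) and 0 to 3; under PBS 33 (no filter), 36 (quantile), 1 (array weights, only the groups compared), 10 (without the 3 libraries) and 20 to 213; for the interaction 5 (pseudocount 0.1), 7 (no trend), 14 (without the 3 libraries) and 0 to 25.

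Of 60 differences of the 10 genes, 18 changed direction in at least 1 alternative, and all 18 had an absolute log2 fold change under 0.5. *Tnfrsf1a* had averaged log2 fold changes of 0.39 with a pseudocount of 0.1, 0.031 without the 3 libraries and −0.63 to 0.22 with a library left out; in WT 1.07 (pseudocount 0.1), 0.052 (array weights) and −0.80 to 0.91; in 6DKO 0.29 without the 3 libraries and −0.87 to 0.34; between genotypes under PBS 0.026 (array weights) and −1.14 to 0.81; and for the interaction 0.039 (quantile), 0.52 without the 3 libraries and −1.38 to 0.57. In WT, *Cd28* was −0.058 with array weights and −0.46 to 0.70 with a library left out, *Tnfrsf9* −0.19 to 0.61 and *Tnfrsf25* −0.30 to 0.55; in 6DKO, *Icosl* was −0.32 to 0.099. Under IL-33 between genotypes, *Tnfrsf9* was 0.000122 with array weights, 0.15 without the 3 libraries and −0.38 to 0.32, *Tnfrsf25* −0.19 to 0.046, *Cd27* −0.15 to 0.18, and *Cd28* −0.21 without the 3 libraries. Under PBS between genotypes, *Tnfrsf18* was 0.040 (quantile), 0.076 without the 3 libraries and −0.23 to 0.10, *Tnfrsf1b* −0.11 (array weights) and −0.50 to 0.88, and *Cd27* −0.10 without the 3 libraries and −0.099 to 0.80. For the interaction, *Tnfrsf1b* was −0.76 and *Cd27* 0.26 without the 3 libraries, and −0.57 to 0.81 and −0.78 to 0.12 with a library left out.

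The values showed no pairing by replicate number: over 18 pairs of groups and numbers, the correlation of deviations was −0.047 to 0.045, and 0 exceeded 0.1. Such correlations cannot exclude that libraries of the same number were handled together. With the replicate number as a block, 15 genes were called between the genotypes under PBS (66 without it) and 1 for the interaction (2 without it), and *Cd28* in 6DKO had an adjusted p of 0.0869 (limma). *Cd80* has no value with a mean of at least 2 FPKM required. FPKM carry no read totals, so depth limits low values such as those of *Cd28* and *Tnfrsf1a* by an unknown amount.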
